A study of Mus musculus with 4 samples.

Results

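Followed here were 8 genes: the angulin family (Ildr2, Ildr1 and Lsr) and 5 further components of the tight junction (Marveld2, Ocln, Cldn11, Tjp1 and Cgn). They are 8 of the 34682 genes in the count table of an RNA sequencing experiment on embryonic mouse ovaries. The genes were picked by name around Ildr2, which was itself selected on its measured difference between mutant and wild-type ovaries, so the fold changes of the 8 genes are given as descriptions, without a test. Whole developing ovaries at E13.5 were profiled in 2 libraries from mutants that overexpress Sall1, a zinc finger transcription factor, and 2 libraries from wild-type ovaries. In the mutants, the Sall1 coding sequence had been placed in a bacterial artificial chromosome (BAC) under the promoter and regulatory elements of Wt1, which is active in the somatic cells of the gonad. The BAC was inserted with the PiggyBac transposase into female mouse embryonic stem cells, and mutant animals were made from those cells by morula aggregation. For the female line that received the BAC, the study names C57BL/6J blastocysts as the source. Its general statement on transgenic stem cells gives a C57BL/6J background or a C57BL/6J-129 hybrid one. The wild-type ovaries carried no transgene, and Sall1 overexpression is the only treatment named. The study describes the controls in one place as littermates and in another as CD1 animals, while the column headings of the wild-type libraries name B6, so genotype and strain background cannot be told apart.

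Tight junctions seal the space between neighbouring epithelial cells. Claudins form the strands between 2 cells, occludin (Ocln) runs along those strands, and the corner where 3 cells meet is closed by a separate structure, the tricellular junction. Angulins are immunoglobulin-like membrane proteins that sit at these corners and recruit tricellulin, the product of Marveld2, while ZO-1 (Tjp1) and cingulin (Cgn) belong to the cytoplasmic plaque that ties junctions to the actin cytoskeleton. Angulin-1 is the product of Lsr, angulin-2 of Ildr1 and angulin-3 of Ildr2.

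The 4 libraries held between 11036313 and 17869840 counts assigned to genes, and a count of 3, taken as the detection floor, corresponded to 0.170 to 0.272 CPM (counts relative to the TMM-adjusted size of each library). Sall1 itself was counted 1243 and 1445 times in the mutant libraries and 279 and 223 times in the wild-type libraries (log2 fold change 2.85, SE 0.16, edgeR adjusted p = 0.00823). The counts do not separate the transgene from the endogenous Sall1 gene. Wt1, whose regulatory elements drive the transgene, stood at 317 ± 34.3 CPM in mutants and 309 ± 0.0346 CPM in wild-type ovaries (SD, n = 2 each). Of the markers of pre-granulosa cells, the supporting cells of the fetal ovary, 10 of 10 were counted, with Kitl at 2 to 4 counts. Their summed level ran from 1114 to 1261 CPM in mutants and from 1134 to 1200 CPM in wild-type libraries. Foxl2 stood at 46.3 and 44.1 CPM in mutants and 28.0 and 32.0 CPM in wild-type libraries. Its log2 fold change was 0.59 (SE 0.12, edgeR adjusted p = 0.301). That of Lhx9 was -0.56 (SE 0.14), and DESeq2 called Lhx9 lower in mutants. Of the 9 tested, 3 had both mutant libraries above both wild-type libraries, against 15.8% of all genes tested. For 1 both were below, against 15.1%. The summed markers of red blood cells ran from 881 to 3223 CPM in mutants and from 1737 to 3567 CPM in wild-type libraries.

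All 8 genes passed the low-count filter that 15442 genes passed. With edgeR, 0 of the 8 genes had an adjusted p under 0.05, where 0.0583% of all genes tested were called. An unadjusted edgeR p under 0.05 was found for 2 of the 8 genes and for 878 of all 15442 tested. With DESeq2, Ildr2 and Cgn were called, where 0.714% of all genes tested were called. The mutant libraries were both below the wild-type libraries for Ildr2 and Cldn11, an arrangement found in 15.1% of all genes tested. They were both above for Ocln, Tjp1 and Cgn, an arrangement found in 15.8% of all genes tested. Since the genes were chosen with this contrast known, nothing is read from these counts. The median log2 fold change was 0.17 over the 8 genes and -0.00088 over all genes tested.

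**Figure D1:**
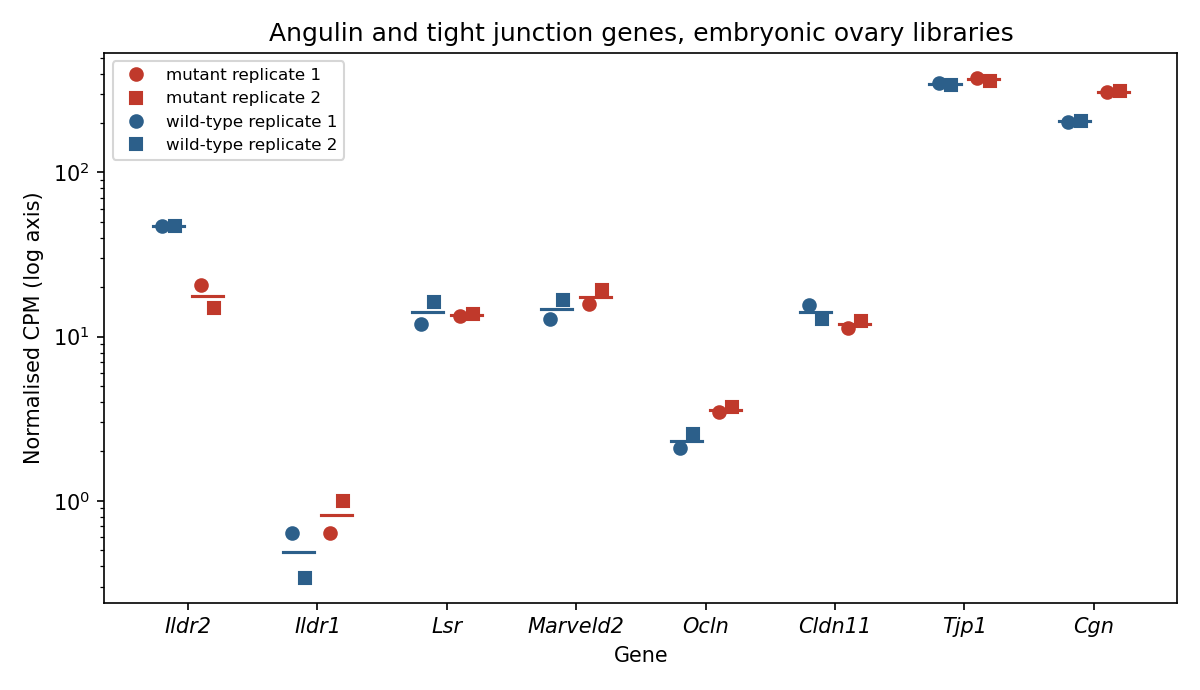
TMM-scaled CPM (log axis) of the 8 genes in the 2 wild-type and 2 mutant libraries, each point 1 library and each bar the mean of a group. The Ildr2 points lie at 15.0 and 20.5 CPM in mutants and at 47.0 and 47.1 CPM in wild-type ovaries, and the Cgn points at 309 and 312 CPM against 204 and 206 CPM.

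Ildr2 lies on chromosome 1 at chr1:168184270-168246954 of NCBIM37 (mm9), plus strand. It was counted 226 times in each of the mutant libraries, and 810 and 829 times in the wild-type libraries. Scaled to library size, the levels were 20.5 and 15.0 CPM in mutants and 47.1 and 47.0 CPM in wild-type ovaries. Both mutant libraries were thus low and far from the wild-type libraries, which were nearly equal to each other. The means were 17.8 ± 3.88 and 47.0 ± 0.0728 CPM (SD, n = 2 each), which put the mutant level at 37.8% of wild-type, or 2.66-fold lower. The fitted log2 fold change was -1.41 (SE 0.16), and single mutant libraries set against single wild-type libraries gave log2 ratios between -1.65 and -1.20. In bulk tissue, fewer cells of a type and less RNA per cell cannot be told apart.

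Lsr, the angulin that is widely expressed in epithelia, lies at chr7:31742428-31768188, minus strand. It was counted 148 and 206 times in mutants and 206 and 285 times in wild-type ovaries. These are 13.4 and 13.7 CPM in mutants and 12.0 and 16.1 CPM in wild-type libraries. The mutant values fell between the wild-type values, so the groups overlapped, and the log2 fold change was -0.05 (SE 0.19).

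Ildr1, known for its role at tricellular contacts of the inner ear, lies at chr16:36694064-36726890, plus strand. It was counted 7 and 15 times in mutants and 11 and 6 times in wild-type ovaries, or 0.635 and 0.997 CPM and 0.639 and 0.340 CPM. These levels were the lowest of the 8 genes, a few times the detection floor, and the groups overlapped. The log2 fold change of 0.75 had an SE of 0.57, so its direction was not resolved by these counts.

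Within the angulin family, the share of all angulin counts taken by Ildr2 was 59.3% (95% Wilson interval 54.3 to 64.1) and 50.6% (45.9 to 55.2) in mutants. In wild-type ovaries it was 78.9% (76.3 to 81.3) and 74.0% (71.4 to 76.5). The intervals, which cover counting error only, did not overlap between the groups. The shares hold the same Ildr2 counts as above and are no separate evidence.

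The stretch upstream of Ildr2 is shown beside that of Cgn, because these were the members that DESeq2 called, and because they shared a short sequence. Each line holds the 250 bases before the transcription start in RefSeq (GRCm38.p6), 5′ to 3′ on the strand of the gene, with the palindrome CACGTG in capitals. An exact match placed them in NCBIM37 at chr1:168184020-168184269, plus strand, and at chr3:94590405-94590654, minus strand.
Ildr2: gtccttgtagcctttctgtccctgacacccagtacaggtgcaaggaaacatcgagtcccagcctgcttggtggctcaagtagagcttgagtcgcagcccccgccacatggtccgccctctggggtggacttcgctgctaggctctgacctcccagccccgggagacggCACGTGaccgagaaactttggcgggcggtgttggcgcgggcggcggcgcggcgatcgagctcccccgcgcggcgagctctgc
Cgn: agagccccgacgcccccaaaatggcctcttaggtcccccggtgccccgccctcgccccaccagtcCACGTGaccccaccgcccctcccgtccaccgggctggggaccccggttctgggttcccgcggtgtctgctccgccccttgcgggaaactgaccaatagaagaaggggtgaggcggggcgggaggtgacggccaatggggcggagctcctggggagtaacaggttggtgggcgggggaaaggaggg
The letters CACGTGAC, searched on both strands and holding CACGTG within them, were present in both windows and in none of the windows of the other 6 genes. They were present in 1.85% of 32851 RefSeq windows of the same length, and CACGTG alone in 6.02%. The motif was chosen after the sequences were seen, and Ildr2 and Cgn differed in opposite directions. The capitals end 76 bases before the start in Ildr2 and 179 bases before it in Cgn. GC content was 66.8% in the Ildr2 window, with 23 CpG dinucleotides, and 70.4% in the Cgn window, with 19. The windows of the other 6 genes ran from 50.4% to 69.2%, with 10 to 22 CpG dinucleotides. Medians over all windows were 52.4% and 6. The motif shares over all windows, here and for AATATT below, were not matched for GC content. AATATT, an AT-rich sequence of the kind that Sall proteins bind, was in none of the member windows and in 6.17% of all windows. Such matches describe the letters of these windows and say nothing about binding.

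Marveld2, which encodes tricellulin, lies at chr13:101365912-101386926, minus strand. It was counted 173 and 290 times in mutants and 219 and 294 times in wild-type ovaries. The levels were 15.7 and 19.3 CPM in mutants and 12.7 and 16.7 CPM in wild-type libraries, so the groups overlapped (log2 fold change 0.25, SE 0.19).

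Ocln, which encodes occludin, is the neighbour of Marveld2 on the same strand, 43.2 kb away at chr13:101266462-101322673. It was counted 38 and 56 times in mutants and 36 and 45 times in wild-type ovaries, or 3.45 and 3.72 CPM and 2.09 and 2.55 CPM. Both mutant levels were above both wild-type levels, on counts that were low in every library, with a log2 fold change of 0.63 (SE 0.32). Marveld2 took 82.0% and 83.8% of the summed Marveld2 and Ocln counts in mutants, and 85.9% and 86.7% in wild-type ovaries. The Wilson intervals of these shares, from 76.2 to 87.3% in mutants and from 81.1 to 89.9% in wild-type ovaries, overlapped.

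Cldn11, a claudin known from myelin and from the Sertoli cell barrier of the testis, lies at chr3:31048868-31063246, plus strand. It was counted 125 and 187 times in mutants and 268 and 225 times in wild-type ovaries. The levels were 11.3 and 12.4 CPM in mutants and 15.6 and 12.7 CPM in wild-type libraries. The groups did not overlap, but the higher mutant library and the lower wild-type library were almost level (log2 fold change -0.25, SE 0.18). The summed level of 10 Sertoli cell markers ran from 71.6 to 75.1 CPM in mutants and from 63.0 to 79.3 CPM in wild-type libraries. Dmrt1 made up 54.3 and 48.0 CPM of these sums in mutants and 58.3 and 43.0 CPM in wild-type libraries. Amh, the Sertoli cell hormone, was at 3 counts in each library. Ptgds stood at 3.45 and 4.45 CPM in mutants and at 1.16 and 1.19 CPM in wild-type libraries. Its log2 fold change was 1.75 (SE 0.35, edgeR adjusted p = 0.266). Of the 8 markers tested, 2 had both mutant libraries above both wild-type libraries, against 15.8% of all genes tested. For 1 both were below, against 15.1%.

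Tjp1, which encodes the scaffold ZO-1, lies at chr7:72441051-72516125, minus strand. It was counted 4151 and 5437 times in mutants and 6058 and 5994 times in wild-type ovaries, or 377 and 361 CPM and 352 and 340 CPM. Both mutant levels were slightly above both wild-type levels. The log2 fold change was 0.09 (SE 0.09), so the gap was about as large as its error.

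Cgn, which encodes cingulin, lies at chr3:94464507-94590414, minus strand, in the annotation. It was counted 3406 and 4693 times in mutants and 3510 and 3629 times in wild-type ovaries. The levels were 309 and 312 CPM in mutants and 204 and 206 CPM in wild-type libraries. Both groups were tight and lay well apart, with the mutants high. The means were 310 ± 2.05 and 205 ± 1.15 CPM (SD, n = 2 each), a 1.52-fold higher level in mutants. The log2 fold change was 0.60 (SE 0.08), and single mutant libraries set against single wild-type libraries gave log2 ratios from 0.59 to 0.61. Cgn took 52.4% and 50.0% of the summed counts of Cgn and its paralogue Cgnl1 (paracingulin) in mutants, and 48.8% and 43.3% in wild-type ovaries.

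**Figure D2:**
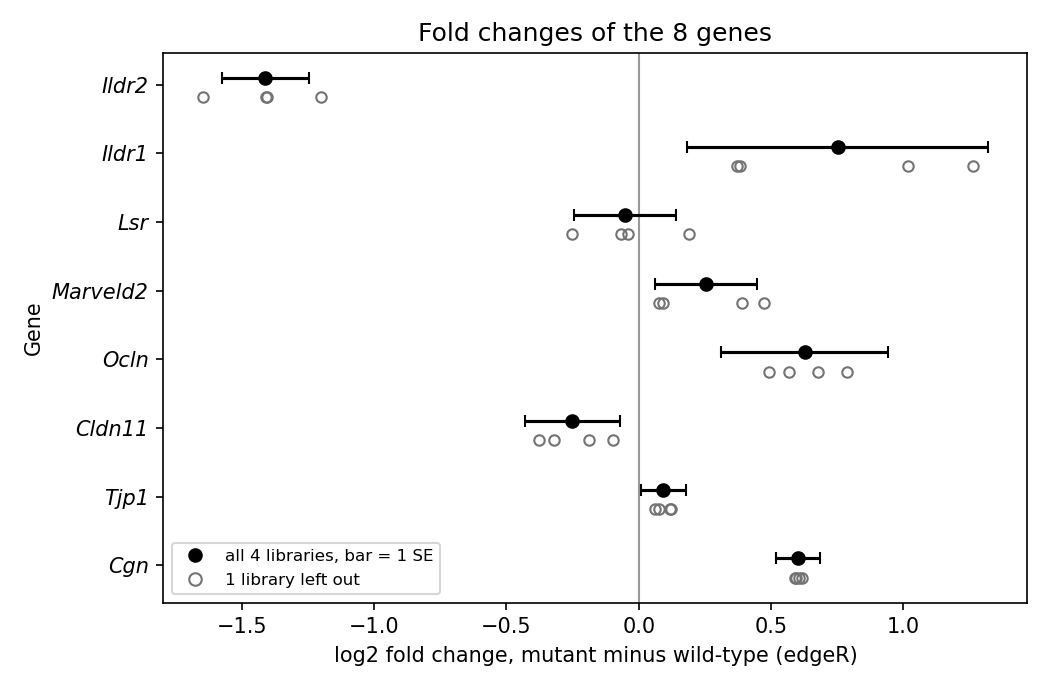
log2 fold change (mutant minus wild-type, edgeR) of the 8 genes, filled points with 1 SE from all 4 libraries and open points with 1 library left out. Ildr2 stayed between -1.65 and -1.20 and Cgn between 0.59 and 0.62 whichever library was left out, whereas Lsr took both signs.

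Levels were compared between genes as CPM per kb of the longest protein-coding transcript. In wild-type ovaries the plaque genes were highest, with Tjp1 at 49.1 ± 1.25 and Cgn at 40.8 ± 0.230 CPM per kb (SD, n = 2 each). Cldn11 (7.68 ± 1.08), Lsr (6.49 ± 1.36) and Ildr2 (5.70 ± 0.00883) followed, and the neighbours in that order overlapped between libraries. Marveld2 stood at 4.80 ± 0.908, Ocln at 0.573 ± 0.0798 and Ildr1 at 0.161 ± 0.0696 CPM per kb. In mutants Cgn was the highest at 61.9 ± 0.408 and Tjp1 came next at 52.3 ± 1.53 CPM per kb, the reverse of their order in wild-type ovaries. That reversal turned on the length used: per kb of the union of annotated exons, Tjp1 led in both groups, at 50.1 ± 1.47 against 47.5 ± 0.313 for Cgn in mutants and 47.0 ± 1.20 against 31.3 ± 0.177 in wild-type ovaries. Cldn11 (6.45 ± 0.417), Lsr (6.26 ± 0.0862) and Marveld2 (5.71 ± 0.827) overlapped with their neighbours in the order. Ildr2 was sixth at 2.15 ± 0.470, clear of Marveld2 above and of Ocln at 0.885 ± 0.0479 below, and Ildr1 was last at 0.268 ± 0.0841 CPM per kb. Lsr was the angulin with the highest level per length in mutants, and also per kb of the union of exons (2.71 ± 0.0372). In wild-type ovaries Lsr and Ildr2 overlapped per kb of the longest transcript, but per kb of the union of exons Ildr2 stood at 5.70 ± 0.00883 and Lsr at 2.81 ± 0.590, with the libraries apart.

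The genes next to Ildr2 on the chromosome had log2 fold changes near 0. Mael, a germ cell gene 15.4 kb away on the other strand, stood at 57.1 and 80.2 CPM in mutants and 70.2 and 66.0 CPM in wild-type ovaries (log2 fold change 0.01, SE 0.16). Tada1, which encodes a subunit of a histone acetyltransferase complex and lies 62.3 kb away, stood at 43.9 and 44.8 CPM and at 43.8 and 52.1 CPM (-0.11, SE 0.13). The groups overlapped for both genes, while those of Ildr2 did not.

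Around Cgn, the neighbours were higher in the mutant libraries to varying degrees. BC021767, on the same strand within the annotated span of Cgn, stood at 42.3 and 43.8 CPM in mutants and 28.0 and 27.3 CPM in wild-type ovaries. Its log2 fold change was 0.64 (SE 0.11, edgeR adjusted p = 0.201), close to the 0.60 of Cgn. The span of Cgn reaches BC021767 only through an extended transcript, and the longest protein-coding transcript of Cgn, at chr3:94563991-94590414, does not overlap it. Tuft1, which encodes tuftelin and lies 1.71 kb from the end of that span, stood at 25.4 and 35.5 CPM in mutants and at 20.1 and 20.5 CPM in wild-type ovaries (0.59, SE 0.18, edgeR adjusted p = 0.590). Selenbp2, on the opposite strand within the span, had a log2 fold change of 0.33 (SE 0.15), and Pogz, 51.1 kb beyond the start of Cgn, one of 0.08 (SE 0.09). In all 4 neighbours both mutant levels were above both wild-type levels, an arrangement found in 15.8% of all genes tested, and edgeR called none of them. Reads in the overlapping stretches may be shared between Cgn, BC021767 and Selenbp2, and the values of the 3 genes are uncertain to that extent.

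**Figure D3:**
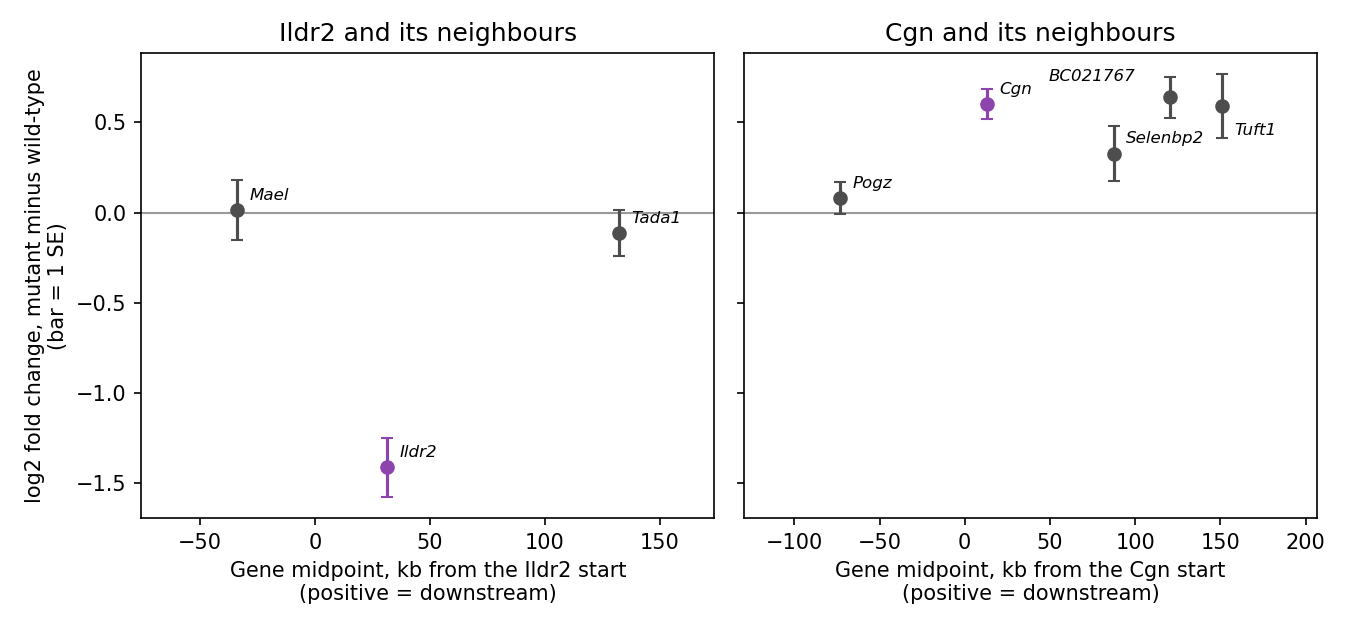
log2 fold change (mutant minus wild-type, bar = 1 SE) of Ildr2 and Cgn and of their tested neighbours against the distance in kb of each gene's midpoint from the start of Ildr2 or Cgn. Mael (0.01) and Tada1 (-0.11) lie near 0 beside Ildr2 (-1.41), while BC021767 (0.64) and Tuft1 (0.59) lie level with Cgn (0.60).

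Among the neighbours of the other members that were not members themselves, tested log2 fold changes lay between -0.28 and -0.01, each smaller in size than its SE. Usf2, 0.606 kb from Lsr, had a log2 fold change of -0.07 (SE 0.11), and Fam187b, which overlaps Lsr on the opposite strand, one of -0.06 (SE 0.39), while Fxyd5, 49.6 kb away, had the most negative value (-0.28, SE 0.34). Rad17, 0.194 kb from Marveld2, had one of -0.07 (SE 0.12), and Gtf2h2, 3.93 kb from Ocln, one of -0.01 (SE 0.13). Skil, 27.4 kb from Cldn11, had one of -0.03 (SE 0.10), and Fam189a1, 140 kb from Tjp1, one of -0.09 (SE 0.41). Beside Ildr1, Cd86 had one of -0.10 (SE 0.65) and Slc15a2 one of -0.03 (SE 0.34). Slc7a14 beside Cldn11 and BC046251 beside Tjp1 did not pass the low-count filter.

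Other junction genes came from 5 lists drawn up by function: 24 claudins, 16 other junction membrane proteins, 33 plaque proteins, 18 adherens junction proteins and 25 epithelial genes. Of these 116 genes, 115 were in the table and 98 were tested. EdgeR and DESeq2 both called 0 of the 98 in either direction. DESeq2 gave no adjusted p for Cldn3, Vsig1 and Lin7a, so it could not call them here or in the single lists below. With edgeR, 12 had an unadjusted p under 0.05, 7 of them higher and 5 lower in mutants. The median log2 fold change over the 98 genes was 0.0063. Over all 15442 genes tested 878 had an unadjusted p under 0.05, the background for this count and for those of the single lists below. The 90% of genes in the middle of that distribution lay between -0.54 and 0.50, so the value of Ildr2 was outside this range, those of Cgn, Ocln and Ildr1 were above its upper end, and those of the other 4 members were inside it.

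Of 11 claudins tested, 0 were called by edgeR or DESeq2 and 3 had an unadjusted p under 0.05 with edgeR, with a median log2 fold change of -0.08. By level per length the claudin list was led by Cldn12 (13.55 CPM per kb over the 4 libraries), Cldn5 (6.76), which is the claudin of endothelial cells, and Cldn6 (3.50). The most negative value was that of Cldn13, counted 5 and 4 times in mutants and 54 and 42 times in wild-type ovaries (log2 fold change -2.95, SE 0.48, edgeR adjusted p = 0.164). Cldn1, a claudin of barrier epithelia, was counted 24 and 15 times in mutants and 115 and 69 times in wild-type ovaries (-1.76, SE 0.47, edgeR adjusted p = 0.494). The groups of both genes lay apart, with mutants low, as for Ildr2. Neither passed the threshold with DESeq2 or with edgeR without a replicate block. Cldn4 had the most positive value, with 44 and 19 counts in mutants and 15 and 17 in wild-type ovaries (1.48, SE 0.59, edgeR adjusted p = 0.849). Both mutant levels of Cldn4, 3.99 and 1.26 CPM, were above the 0.872 and 0.963 CPM of the wild-type libraries, the second by little. Of the 11 claudins tested, 4 had both mutant libraries below the wild-type libraries, against 15.1% of all genes tested, and 2 had both above, against 15.8%.

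**Figure D4:**
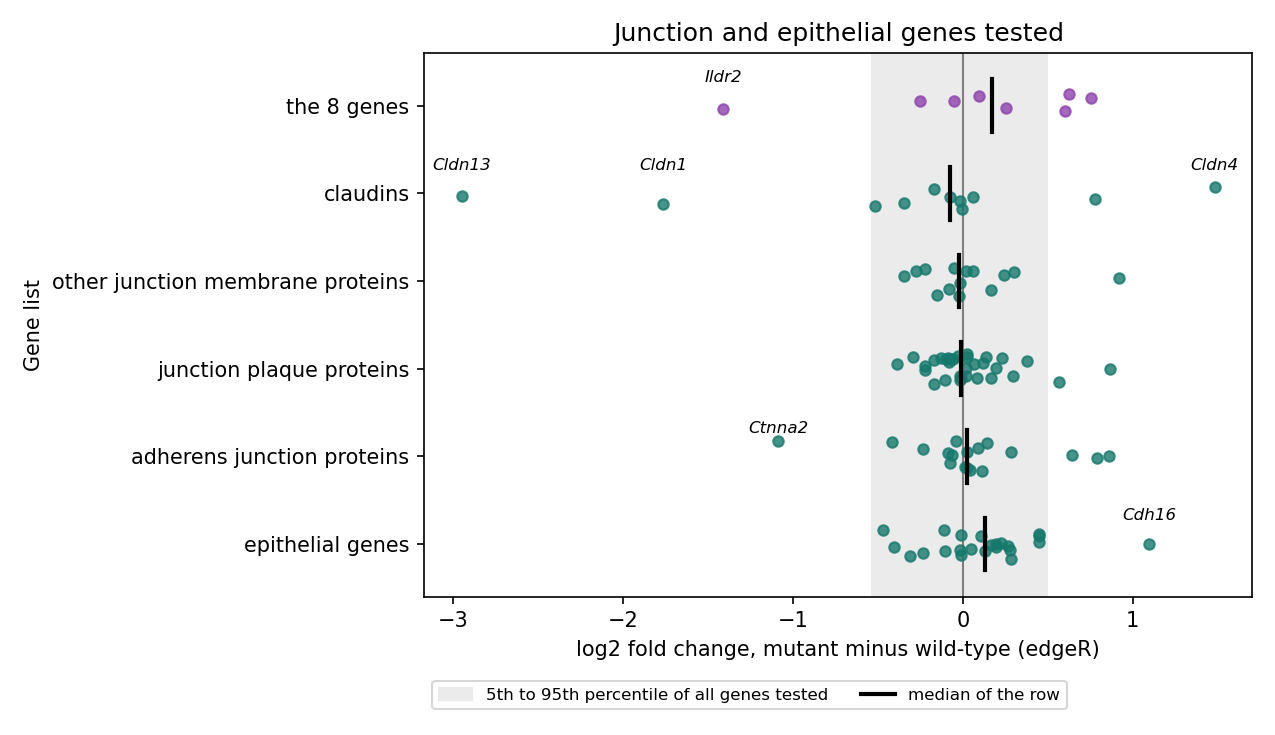
log2 fold change (mutant minus wild-type, edgeR) of the 8 genes and of the 98 tested genes of the 5 lists, each point a gene and each vertical bar the median of its row, with genes beyond 1 in size named. The shaded band spans -0.54 to 0.50, the 5th to 95th percentile of all genes tested, and the list medians lie between -0.08 and 0.13.

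Among the other membrane proteins of junctions, 0 of 14 tested genes were called by either tool and 0 had an unadjusted p under 0.05, with a median log2 fold change of -0.02. F11r, which encodes the adhesion molecule JAM-A, led this list at 60.4 CPM per kb, followed by Pmp22 (34.0) and Jam3 (25.2). Marveld3, the third MARVEL protein of tight junctions beside Ocln and Marveld2, was counted 17 and 12 times in mutants and 15 and 6 times in wild-type ovaries (0.92, SE 0.62, the most positive value), and its groups overlapped. The most negative value was that of Crb1, a polarity protein (-0.35, SE 0.49).

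Among the plaque proteins, 0 of 32 tested genes were called by either tool and 3 had an unadjusted p under 0.05 with edgeR, with a median log2 fold change of -0.01. Sympk (65.4 CPM per kb), Cgnl1 (39.8) and Llgl1 (36.8) were the highest. Cgnl1, the paralogue of Cgn, stood at 281 and 312 CPM in mutants and 214 and 269 CPM in wild-type ovaries (0.29, SE 0.13, edgeR adjusted p = 0.895). As for Cgn, both mutant levels of Cgnl1 were above both wild-type levels, though the spread within each group was wider. Dlg1 had the most positive value (0.86, SE 0.53) and Lin7a the most negative (-0.39, SE 0.56), both at low counts.

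Of 18 adherens junction genes, 0 were called by either tool and 4 had an unadjusted p under 0.05 with edgeR, with a median log2 fold change of 0.03. The cadherin partner β-catenin, Ctnnb1, led at 352 CPM per kb, followed by Ctnna1 (100.1) and Ctnnd1 (77.0). Among the α-catenins, Ctnna2 had the most negative value of the list (-1.09, SE 0.29, edgeR adjusted p = 0.484) and Ctnna3 the most positive (0.86, SE 0.30, edgeR adjusted p = 0.738). Of 23 epithelial genes tested, 0 were called by either tool and 2 had an unadjusted p under 0.05 with edgeR, with a median of 0.13. For 8 of the 23 both mutant libraries were above both wild-type libraries, against 15.8% of all genes tested. For 3 both were below, against 15.1%. Krt8 (31.4 CPM per kb), Krt18 (27.7) and Epcam (27.1) were the highest of the epithelial genes. Krt7 had the most negative value (-0.47, SE 0.21) and Cdh16 the most positive (1.10, SE 0.77), and the Cdh16 groups overlapped.

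The genes whose levels over the 4 libraries lay closest to those of Ildr2 were Tnfrsf14, G6b, Plxnc1, Ptpro and Hpgd, in that order. Likeness was the distance between log2 CPM values, each centred on the gene's own mean over the 4 libraries, and it ran from 0.107 for Tnfrsf14 to 0.148 for Hpgd on the log2 scale. Plxnc1, a semaphorin receptor, was counted 376 and 423 times in mutants and 1370 and 1368 times in wild-type ovaries. Ptpro, a receptor tyrosine phosphatase known from podocytes, was counted 194 and 223 times in mutants and 739 and 781 times in wild-type ovaries. Hpgd, the enzyme that inactivates prostaglandins, was counted 76 and 86 times against 311 and 310 times. In CPM, mutant replicate 2 was the lowest library in all 3, as in Ildr2, and the wild-type libraries were nearly level. The genes were picked for their likeness to Ildr2 over these same libraries, so this shared pattern follows from the choice. Tnfrsf14 (8, 7, 31 and 34 counts in mutant 1, mutant 2, wild-type 1 and wild-type 2) and G6b (3, 2, 12 and 13 counts) were at low counts, where likeness rests on few reads. Among the 15441 other genes tested, the closest of the other members was Cldn11 at rank 1770 and the next Lsr at rank 6679, and the farthest was Ildr1 at rank 14947.

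**Figure D5:**
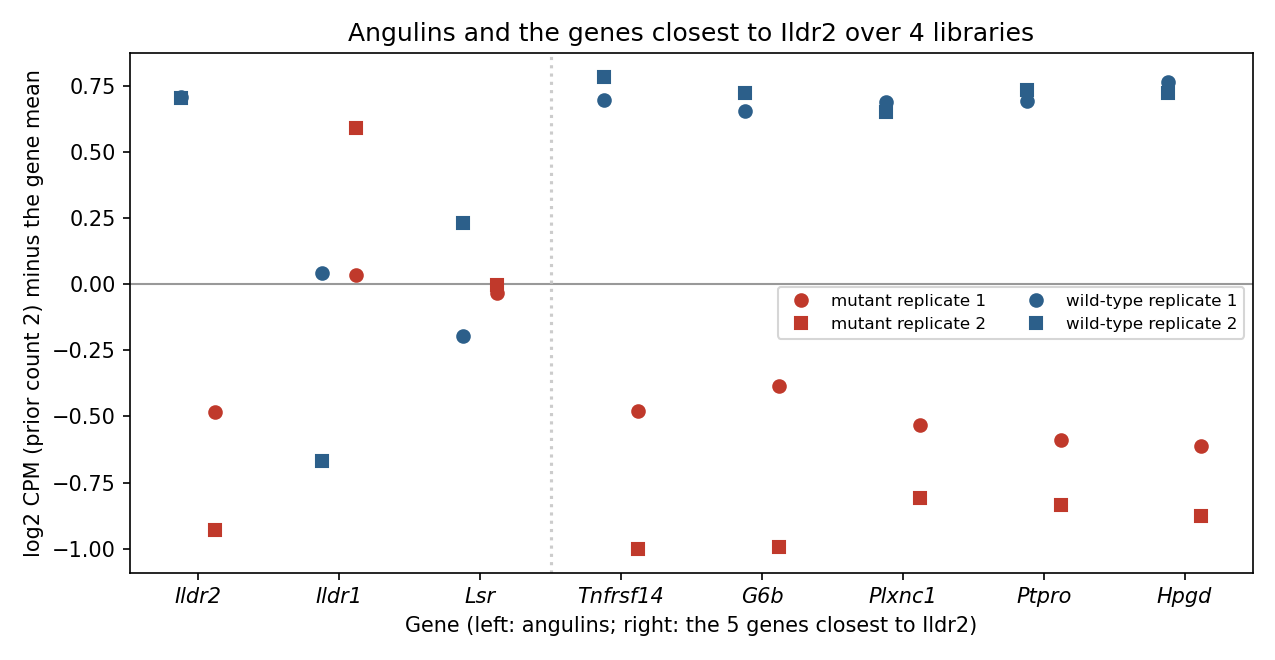
Library-by-library log2 CPM (prior count 2) minus the gene's mean over the 4 libraries for the 3 angulins (left) and the 5 genes closest to Ildr2 (right), each point 1 library. Ildr2 lies at 0.71 in both wild-type libraries and at -0.48 and -0.93 in mutants, while Ildr1 and Lsr show no such separation.

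Markers of other cell types were set beside these values. The summed level of 8 gonadal stroma markers was 1005 and 643 CPM in mutants and 969 and 912 CPM in wild-type ovaries, and for 6 of the 8 both mutant libraries were below both wild-type libraries, against 15.1% of all genes tested. EdgeR called 0 of the 8, and DESeq2 called Tcf21 (edgeR log2 fold change -1.10, SE 0.14) and Pdgfra (-0.55, SE 0.12) lower in mutants. The median log2 fold change of these stroma markers was -0.51, against -1.41 for Ildr2. The 9 endothelial markers summed to 482 and 460 CPM in mutants and 505 and 529 CPM in wild-type ovaries, with a median of -0.22. Cldn5, itself 1 of these 9, had a log2 fold change of -0.35 (SE 0.19). Of the 9, 4 had both mutant libraries below both wild-type libraries, against 15.1% of all genes tested. For 0 both were above, against 15.8%. The 9 surface epithelium and mesothelium markers summed to 1048 and 870 CPM in mutants and 961 and 934 CPM in wild-type ovaries. Their median log2 fold change was -0.28 over the 8 tested. Of these 8, 4 had both mutant libraries below both wild-type libraries, against 15.1% of all genes tested, and 0 had both above, against 15.8%. DESeq2 called 1, Upk3b, lower in mutants (edgeR log2 fold change -0.72, SE 0.15). Podxl (0.14, SE 0.11) made up 820 and 696 CPM of the sums in mutants and 703 and 670 CPM in wild-type ovaries. The 11 markers of mesonephric duct and tubule, with Tfap2b at 0 in every library, summed to 177 and 194 CPM in mutants and 175 and 209 CPM in wild-type ovaries, of which Emx2 made up 138 and 141 CPM and 129 and 152 CPM. Within that list Calb1, a calcium-binding protein, stood at 0.817 and 0.931 CPM in mutants and at 8.89 and 15.1 CPM in wild-type ovaries (log2 fold change -3.76, SE 0.37, edgeR adjusted p = 0.0449). Pax8, a transcription factor of the nephric lineage, stood at 13.9 and 17.7 CPM in mutants and at 9.07 CPM in both wild-type libraries (0.80, SE 0.19, edgeR adjusted p = 0.372). The 8 germ cell markers summed to 1657 and 1890 CPM in mutants and to 1706 and 1829 CPM in wild-type ovaries. The mutant library with the lowest Ildr2 level, replicate 2, also had the lowest pre-granulosa, stroma, endothelial, surface epithelium and red blood cell sums. The same library had the highest germ cell sum, and its mesonephric and Sertoli cell sums lay within the range of the other libraries. The part of these cell types in the Ildr2 difference was not tested.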

How the data were processed

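RNA was extracted with a column kit from ovaries at E13.5 and sequenced on an Illumina HiSeq. The authors deposited raw counts per gene, 1 column per library, made with STAR 2.6.1d and summarizeOverlaps on mm9. The annotation and strand setting are not given in the sources used here, so overlapping and antisense genes are uncertain. Depth was 11036313 to 17869840 counts per library, and 0 columns were left unused. The labels do not say that replicates are separate animals, so p-values measure only the spread between these samples. Groups followed the labels.

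Counts of 15442 genes passing filterByExpr were fitted with edgeR 4.0.16 (R 4.3.3; TMM, quasi-likelihood test, Benjamini-Hochberg, threshold 0.05), checked on simulated data. DESeq2 1.42.0 (the tool of the study), RLE scaling, no filter, a replicate block, leaving out each library and union exon lengths were alternatives. Members and lists were chosen with earlier results of these data known. The text names members, their neighbours, and for each list the 3 highest genes per length and the most positive and negative genes. It also names the 5 genes closest to Ildr2, and Sall1, Wt1 and Foxl2. Cldn1, Cgnl1, Marveld3 and Cldn5 are also described, and Cldn3 and Vsig1 are named as genes without a DESeq2 adjusted p. The markers Amh, Dmrt1, Ptgds, Kitl, Lhx9, Podxl, Upk3b, Tfap2b, Emx2, Calb1, Pax8, Tcf21 and Pdgfra were picked after their values were seen. Symbols were matched through older names where needed, and Cldn25 was unmatched. Coordinates and lengths are from GENCODE M1 on NCBIM37. The floor of 3 counts and the 95% Wilson intervals cover counting error only.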

Additional observations from a re-analysis of the deposited data

How the results depend on the processing

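With 2 libraries a group the number of genes called moved with the method. EdgeR called 9 genes, RLE scaling gave 10, the table without a low-count filter 28, and DESeq2 105. Leaving out 1 library gave 4 to 130 genes: 130 without mutant replicate 1, 38 without mutant replicate 2, 7 without wild-type replicate 1 and 4 without wild-type replicate 2, with the lone library left assumed to vary like the other group. The same replicate numbers are not said to mark shared litters or days, though the column headings give same-numbered libraries consecutive library numbers, and there are only 2 pairs; same-numbered libraries deviated together with a correlation of 0.481 over genes. With a replicate block 385 genes were called, 180 higher and 205 lower in mutants, and 7 genes of the junction lists where edgeR without it called 0: Cdh2, Cldn1, Cldn13, Ctnna2, Dsg2, Magi2 and Pkp2.

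The junction lists gave 0 to 1 called genes when 1 library was left out, the gene being Magi2 without mutant replicate 1. The log2 fold change of Ildr2 was -1.41 with all libraries and -1.42 with the replicate block, and ran from -1.65 to -1.20 without 1 library. Ildr2 and Cgn were called with DESeq2, with the block and without mutant replicate 1, and Ildr2 alone was called without a filter and without mutant replicate 2. Of 64 member values under other settings 63 kept their sign, and the exception was Lsr without wild-type replicate 2 (0.19). Union exon lengths moved the wild-type level per kb of Lsr from 6.49 to 2.81, that of Cgn from 40.8 to 31.3 and that of Tjp1 from 49.1 to 47.0. The cause of these shifts was not tested. Of the 8 members, Ildr1 and Ocln had the fewest counts in every library.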
